A study of Rattus norvegicus with 2 samples.

Results

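Genes of the stromal matrix and of stellate cells were followed in HIP rats and wild-type rats: the fibrillar collagen genes Col1a1, Col1a2, Col3a1 and Col5a1, the proteoglycan genes Bgn and Dcn, the matricellular gene Sparc, the laminin gene Lama4, the smooth muscle actin gene Acta2 and the receptor gene Pdgfrb. They were found as every gene spot whose array name, without the suffix "_predicted", was 1 of these 10 symbols or an older symbol of the same gene. The rule found 15 of the 41012 gene probes, for 9 of the 10 genes. Lama4 was found under its older symbol RGD1560062, and Acta2 was not analysed here. Each of the 15 probes had 1 spot on each array, and no spot was marked as an outlier.

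The extracellular matrix of the pancreas is laid down mainly by stellate cells and fibroblasts, which rest in small numbers around acini, ducts and islets. On injury, stellate cells become myofibroblasts that make fibrillar collagen and contract through alpha smooth muscle actin. PDGF, acting through receptors such as PDGFRB, drives their growth and migration, and TGF-beta drives their matrix synthesis. This cell type is known for the fibrosis of chronic pancreatitis.

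HIP rats are transgenic for human IAPP (islet amyloid polypeptide), which beta cells release with insulin and which can form amyloid. As background, the transgene of this model is known to be driven by an insulin promoter, so that it is made in beta cells. The reference animals were nondiabetic wild-type rats. Amplified cDNA of 2 HIP extracts, labelled with Cy5, and of 2 wild-type extracts, labelled with Cy3, was measured on 2 rat whole-genome arrays that read both dyes, with 1 HIP and 1 wild-type extract on each array. Each genotype kept its dye on both arrays, and effects of dye and of genotype cannot be told apart. The labels call the material cell samples, name no tissue, age or sex, and do not state whether each extract is a separate rat. A p-value here thus measures only how these samples spread, which may be technical. In bulk samples of this kind, fewer cells of a type and less RNA per cell cannot be told apart.

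The median gene spot was 5.13 and 5.1 times its local background in HIP 1 and HIP 2, against 5.26 and 2.94 times in wild type 1 and wild type 2. The scanner software called 85% and 84.1% of gene spots well above background in the HIP extracts, against 83.5% and 73.6% in the wild-type extracts, and 0% of 153 negative control spots in each extract. Across the 33661 probes fitted, which are not independent replicates, the log2 ratios on array 1 and array 2 were nearly unrelated (Pearson r = -0.008, Spearman rho = -0.013). The smallest p that an exact sign-flip test can give with 2 arrays is 0.5, and the number of arrays limits the precision of every value here.

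In both HIP extracts, the probes of Sparc, Bgn, Dcn and Col5a1 had lower processed signals than in both wild-type extracts. A further probe described as decorin, outside the rule, overlapped between the genotypes. The Col1a1 probes overlapped between the genotypes, and the Col3a1 probe was lower in HIP on array 1 and higher on array 2. For Col1a2 and Lama4, different probes of the same gene lay on opposite sides of wild type. None of these differences passed the test across all probes.

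Of the 15 stromal probes, 14 passed the filter of being well above background in at least 1 dye on both arrays. By limma with Benjamini-Hochberg adjustment over all 33661 probes, 0 of the 14 passed a threshold of 0.05 upwards and 0 downwards in HIP. Their adjusted p-values by limma began at 0.942. The background was the same, with 0% of all probes called in each direction. At an unadjusted p of 0.05 limma passed 3 of the 14 probes, against 1102 of all probes (3.27%). These were Lama4 A_44_P187554, above 0, and Lama4 A_43_P16442 and Col5a1 A_43_P13273, below 0. With a trended variance prior 1 of the 14 passed (987 of all probes), and with a robust prior 2 did (989). With the 4 channels as separate samples 3 passed (1426 of all probes). By size alone, 1 stromal probe was at least 2-fold higher in HIP on both arrays (2.57% of all probes), 3 were at least 2-fold lower on both (2.44%) and 1 was 2-fold apart in opposite directions (5.42%). The 3 lower ones belonged to Col5a1, Sparc and Lama4, and the higher one also belonged to Lama4.

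By sign after loess, 7 of the 14 probes were below 0 on both arrays (22.9% of all probes), 3 were above 0 on both (26.9%) and 4 had opposite signs (50.2%). The same 7 probes had processed signals in both HIP extracts below those of both wild-type extracts (14.4% of all probes). They belonged to Col1a2, Col5a1, Bgn, Dcn, Sparc and Lama4. Another 3 probes, of Col1a2 and Lama4, had both HIP signals above both wild-type signals (17% of all probes). Among them, Lama4 A_43_P17235 passed the filter only through its HIP readings and was not well above background in either wild-type extract. It is also among the 3 above 0 on both arrays, and gives neither count support. The median of the 14 mean log2 ratios was -0.34, against 0.02 over all probes, and the medians on array 1 and array 2 were -0.07 and -0.26. The sign counts depended on the normalization. With median centring, Bgn (0.78) and Col5a1 A_44_P196079 (0.68) were above 0 on array 1, and Dcn (0.11) on array 2. Lama4 A_43_P17235 was then below 0 on both arrays (-0.18 and -0.14), and each Col1a1 probe had 1 sign on both. The genes were chosen with earlier results of these data known, and no probe passed the test, so these counts are a description.

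**Figure D1:**
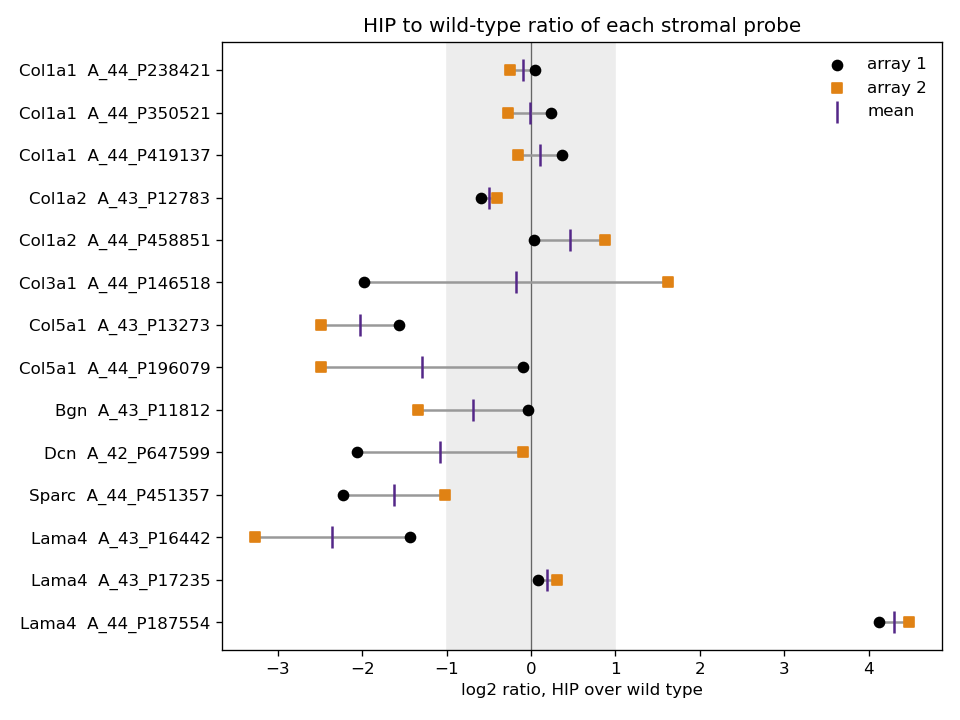
The log2 ratio of HIP over wild type of each of the 14 stromal probes fitted, with circles for array 1, squares for array 2 and a bar for their mean; the grey band is the range under 2-fold. Col5a1, Sparc and Lama4 have probes below the band on both arrays, and 1 Lama4 probe stands at 4.12 and 4.48.

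The promoters of the 3 genes with a probe 2-fold apart on both arrays in 1 direction are shown because these genes have the largest mean ratios in the group. They run from 250 bases before to 50 after the annotated start and come from RefSeq on the GRCr8 build, whose table held 5 of the 10 genes (Acta2, Col1a2, Col5a1, Lama4 and Sparc). Capitals mark CAGAC or its reverse complement GTCTG, searched on both strands, the letters that SMAD proteins of the TGF-beta pathway are known to bind. The window lies at chr3:31606630-31606929 on the plus strand for Col5a1, at chr10:40038767-40039066 on the minus strand for Sparc and at chr20:43946648-43946947 on the plus strand for Lama4.
Col5a1: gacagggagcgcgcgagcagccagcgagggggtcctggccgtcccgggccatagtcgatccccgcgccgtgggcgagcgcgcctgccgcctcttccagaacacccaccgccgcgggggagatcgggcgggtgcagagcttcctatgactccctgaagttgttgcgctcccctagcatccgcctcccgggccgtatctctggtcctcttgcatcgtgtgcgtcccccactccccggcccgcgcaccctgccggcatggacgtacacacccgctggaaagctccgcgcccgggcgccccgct
Sparc: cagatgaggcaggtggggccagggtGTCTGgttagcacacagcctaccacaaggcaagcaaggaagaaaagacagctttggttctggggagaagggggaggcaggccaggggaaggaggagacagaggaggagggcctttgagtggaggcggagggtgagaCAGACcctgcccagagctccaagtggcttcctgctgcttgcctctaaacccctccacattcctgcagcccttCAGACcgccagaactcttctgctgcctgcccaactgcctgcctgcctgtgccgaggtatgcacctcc
Lama4: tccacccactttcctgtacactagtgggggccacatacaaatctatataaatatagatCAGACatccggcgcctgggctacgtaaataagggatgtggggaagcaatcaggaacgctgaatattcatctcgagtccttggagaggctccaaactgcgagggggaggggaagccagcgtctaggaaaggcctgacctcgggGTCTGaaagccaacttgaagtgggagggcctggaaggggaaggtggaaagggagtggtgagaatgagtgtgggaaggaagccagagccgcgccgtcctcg
These letters occurred 0 times in the Col5a1 window, 3 times in the Sparc window and 2 times in the Lama4 window. Of all 33469 promoter windows of this length, 50.1% held them at least once, so a match in a single window is common. The match is a description of these letters and says nothing of a factor's binding.

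Lama4 encodes the alpha-4 chain of the laminins found in the basement membranes of blood vessels and other mesenchymal tissue. Its 3 probes gave 3 different answers. Probe A_44_P187554 had processed signals of 16890 in HIP 1 and 24340 in HIP 2, against 641.5 in wild type 1 and 759.5 in wild type 2. Both HIP extracts were far above both wild-type extracts, which differed little from each other. Its log2 ratios of HIP over wild type were 4.12 on array 1 and 4.48 on array 2, with a mean of 4.30 ± 0.26 (SD, n = 2 arrays), a limma standard error of 0.40 and an adjusted p of 0.942. Among all 33661 probes, 13 had a mean ratio at least as high, this one included, and 10 stood at 4 or more on both arrays.

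Probe A_43_P16442 of the same gene went the other way. Its signals were 544.5 in HIP 1 and 958.9 in HIP 2, against 1761 in wild type 1 and 12780 in wild type 2. Both HIP extracts lay below both wild-type extracts, and the wild-type extracts differed from each other more than the HIP extracts did. Its log2 ratios were -1.44 and -3.27, with a mean of -2.36 ± 1.30 and an adjusted p of 0.942 by limma. The third probe, A_43_P17235, was not well above background in either wild-type extract. It read 60.99 and 86.6 in HIP 1 and HIP 2, against 34.87 and 47.01 in wild type 1 and wild type 2. After loess its HIP level was 1.14-fold higher (adjusted p = 0.992 by limma), from mean normalized log2 levels of 6.38 in HIP and 6.19 in wild type. This is no lower limit, because the wild-type readings were used although they were not well above background. It is also open to dye bias, since each genotype had a single dye. Relative to the median of all probes, the mean of this probe was 0.17, but -0.43 when ratios were centred on the median in place of loess.

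By the array's own annotation, which names no build in the sources used here, the higher probe lies furthest upstream of the 3. The lower probe begins 75250 bases further on and spans 3036 bases there, against 60 bases for each of the other Lama4 probes. The dim probe begins 101799 bases from the first and is the furthest downstream. Of 3340 genes with at least 2 probes fitted, 5 (0.15%) had 1 probe at least 2-fold higher and another at least 2-fold lower in HIP on both arrays. These were Chd1, Hspd1, Lama4, Masp2 and Slc12a7, named because the count is small and after their values were seen. In the authors' deposited table, Lama4 had 1 entry, under the name of the lower probe, and its log2 ratios there were -0.11 and -0.03 on arrays 1 and 2. Neither value equals the scanner's ratio of that probe, which was -1.69 on array 1 and -3.74 on array 2. The sources used here do not say how the authors combined the 3 probes.

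**Figure D2:**
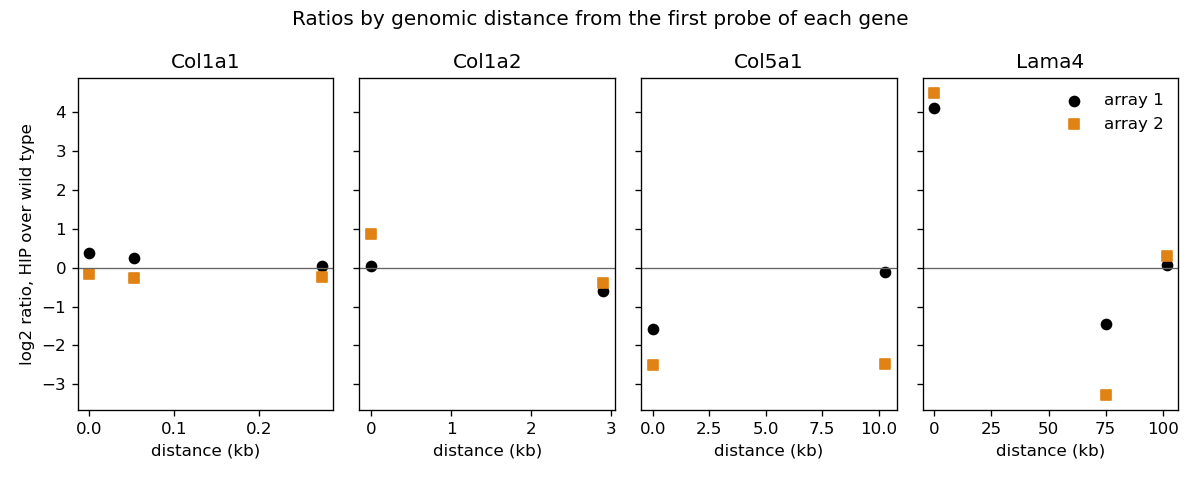
The log2 ratio of HIP over wild type on each array (circles, array 1; squares, array 2) against the distance in kilobases from the first probe of the gene, for the 4 genes with several probes. The probes of Col1a1 stay near 0, while those of Lama4 run between -3.27 and 4.48.

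Col5a1 encodes a chain of type V collagen, which is known to start and limit the assembly of collagen fibrils. Both of its probes were lower in the HIP extracts. Probe A_43_P13273 had signals of 1694 in HIP 1 and 944.4 in HIP 2, against 5554 in wild type 1 and 7291 in wild type 2, so the genotypes did not overlap. Its log2 ratios were -1.57 and -2.49, with a mean of -2.03 ± 0.65 (SD, n = 2 arrays), a limma standard error of 0.47 and an adjusted p of 0.942. Probe A_44_P196079, 10285 bases further along the gene, had 12370 in HIP 1 and 2561 in HIP 2, against 14070 in wild type 1 and 16290 in wild type 2. It did not overlap either, but its ratio of -0.10 on array 1 was close to 0, while array 2 gave -2.48. The probes thus gave nearly equal ratios on array 2 and clearly different ones on array 1. In the authors' deposited table the single Col5a1 entry read -0.78 and -2.80 on the log2 scale.

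Col1a1 and Col1a2 encode the chains of type I collagen, the main fibrillar collagen of scar tissue. After loess, Col1a1 showed no difference larger than the spread between arrays. Its brightest probe, A_44_P419137, had signals of 10910 in HIP 1 and 15420 in HIP 2, against 8351 in wild type 1 and 17710 in wild type 2, and the genotypes overlapped. The log2 ratios were 0.37 and -0.16 (mean 0.11 ± 0.37). Probe A_44_P350521, which overlaps it by 7 bases, gave 0.24 and -0.27 (mean -0.01 ± 0.36), from 8287 and 8616 in the HIP extracts, against 7144 and 10540 in the wild-type extracts. Relative to the median of all probes, its mean was -0.04, but 0.47 with median centring. The third probe, A_44_P238421, gave 0.05 and -0.25 and stood at only 2.02 and 1.81 times the local background in HIP 1 and HIP 2, against 2.04 and 1.97 times in wild type 1 and wild type 2. All 3 Col1a1 probes were higher on array 1 than on array 2, and their adjusted p-values by limma lay between 0.998 and 1.00.

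For Col1a2 the 2 probes disagreed. Probe A_44_P458851 had 686.9 in HIP 1 and 829.1 in HIP 2, against 617.5 in wild type 1 and 350 in wild type 2, with log2 ratios of 0.04 and 0.88 (mean 0.46 ± 0.59, adjusted p = 0.946 by limma). Probe A_43_P12783, 2905 bases further along, had 330.2 and 194.3 in HIP 1 and HIP 2, against 558.6 and 392.5 in wild type 1 and wild type 2. This gave log2 ratios of -0.59 and -0.41 (mean -0.50 ± 0.13, adjusted p = 0.942 by limma). Neither probe overlapped between the genotypes, yet they lay on opposite sides of 0, each under 2-fold. The authors' deposited table gave Col1a2 as -0.27 and 0.17 on the log2 scale.

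Col3a1 encodes type III collagen, which is laid down early in wound repair beside type I. Its 1 probe had 683.2 in HIP 1 and 2323 in HIP 2, against 3244 in wild type 1 and 464.2 in wild type 2. HIP 1 was thus the lower of the pair on array 1 and HIP 2 the higher on array 2. The log2 ratio was -1.98 on array 1 and 1.62 on array 2. The scanner's own log2 ratios were -2.25 and 2.32, with p-values of 1.2e-14 and 6.12e-15 from its error model of single spots, so that the arrays disagreed by more than the spot error of that model. Its mean of -0.18 ± 2.54 (adjusted p = 0.999 by limma) gave no direction. Relative to the median of all probes the mean was -0.20, and 0.05 with median centring.

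**Figure D3:**
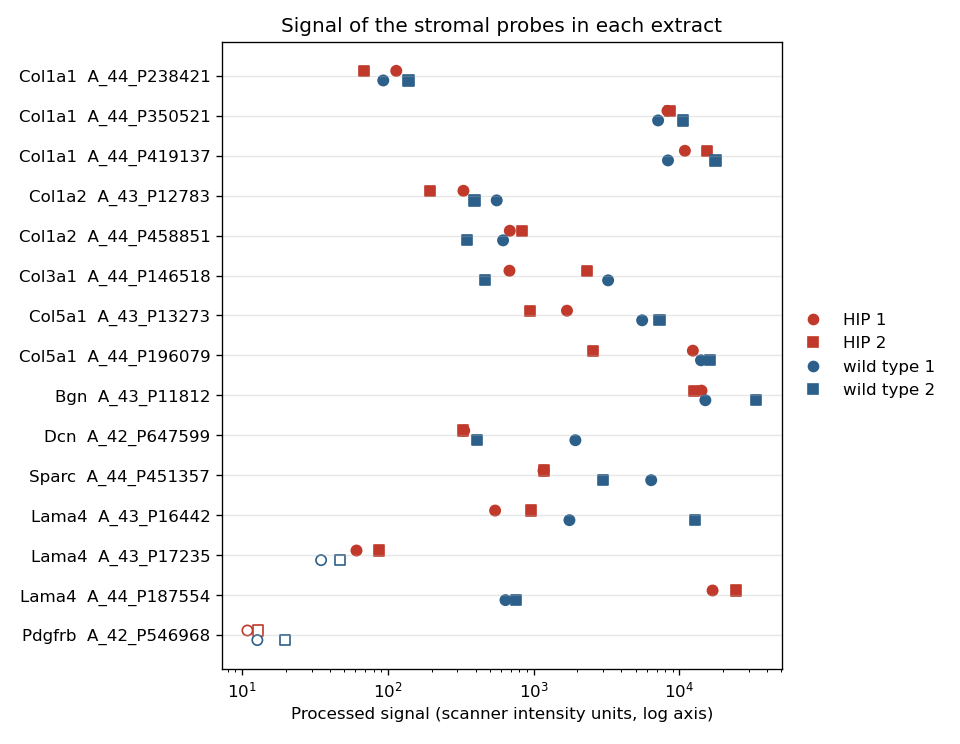
Processed signal of each of the 15 stromal probes on a log axis, in the HIP extracts (red) and the wild-type extracts (blue), with circles for array 1 and squares for array 2; open marks are spots not well above background. For Sparc the HIP extracts sit at 1169 and 1183, below both wild-type extracts, and Pdgfrb is open in all 4 extracts.

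Bgn and Dcn encode biglycan and decorin, small leucine-rich proteoglycans that bind collagen fibrils and TGF-beta. For Bgn the signals were 14180 in HIP 1 and 12580 in HIP 2, against 15070 in wild type 1 and 33600 in wild type 2. The genotypes did not overlap, but HIP 1 and wild type 1 differed little. The log2 ratios were -0.03 and -1.33, with a mean of -0.68 ± 0.92 (adjusted p = 0.942 by limma). Dcn showed the reverse order of arrays, with 334.1 in HIP 1 and 329.7 in HIP 2, against 1935 in wild type 1 and 407 in wild type 2. This gave ratios of -2.06 and -0.09 on the log2 scale, with a mean of -1.08 ± 1.39 (adjusted p = 0.942 by limma). For both proteoglycans the mean thus rested mainly on 1 array, array 2 for Bgn and array 1 for Dcn, and the SD over the arrays was larger than the size of the mean. The authors' deposited table gave -0.09 and -1.42 for Bgn and -2.53 and -0.30 for Dcn on the log2 scale. A further probe described as decorin, outside the rule, gave log2 ratios of 0.05 and -0.09.

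Sparc encodes osteonectin, a secreted protein that binds collagen and is made by remodelling stroma. Its signals were 1169 in HIP 1 and 1183 in HIP 2, against 6407 in wild type 1 and 3007 in wild type 2. The HIP extracts were nearly equal and lay below both wild-type extracts. The log2 ratios were -2.23 and -1.02, at least 2-fold lower on both arrays after loess. Their mean was -1.63 ± 0.85 (SD, n = 2 arrays), with a limma standard error of 0.53, an unadjusted p of 0.0626 and an adjusted p of 0.942. With median centring the ratios were -1.79 and -0.27, so array 2 fell short of 2-fold. The authors' deposited table gave -2.45 and -1.35 for Sparc, equal to the scanner's ratio.

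Pdgfrb encodes the receptor for PDGF-B on pericytes and stellate cells. Its 1 probe was not well above background in any extract, at 1.13 and 0.98 times the local background in HIP 1 and HIP 2, against 1.25 and 1.24 times in wild type 1 and wild type 2. It was not tested, and no ratio is given for it. The defining contractile marker of activated stellate cells, Acta2, was not analysed here. The probes that could be tested are all of matrix genes, which are known to be made by other cells too.

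**Figure D4:**
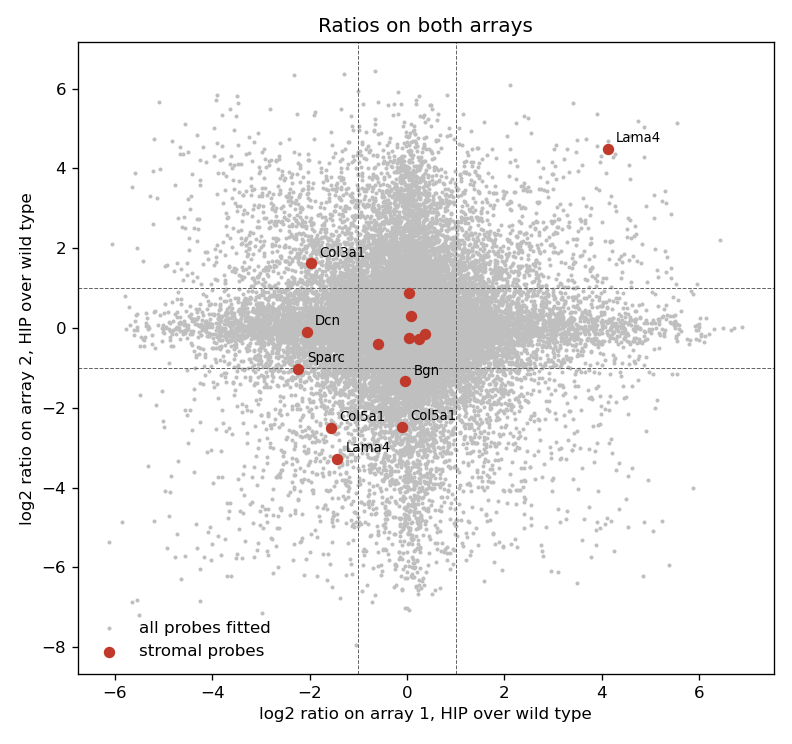
The log2 ratio of HIP over wild type on array 1 (x axis) and array 2 (y axis) for all 33661 probes fitted (grey) and the 14 stromal probes (red), with dashed lines at 2-fold; probes 2-fold apart on an array are named. The named probes lie in different directions, with 1 Lama4 probe at the upper right and another at the lower left.

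The directions of the leading probes held under other ways of processing. Relative to the median of all probes, the mean log2 ratio of the higher Lama4 probe was 4.28 after loess, 4.73 with median centring, 4.82 in the scanner's own ratios and 4.48 without background subtraction. The lower Lama4 probe stood at -2.38, -2.05, -2.76 and -2.45 under the same settings, the first Col5a1 probe at -2.05, -1.66, -2.37 and -2.12, and Sparc at -1.65, -1.30, -1.94 and -1.70. Of the 14 probes, 3 took the other sign in at least 1 of these settings, namely a probe each of Col1a1, Col3a1 and Lama4, the dim one.

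**Figure D5:**
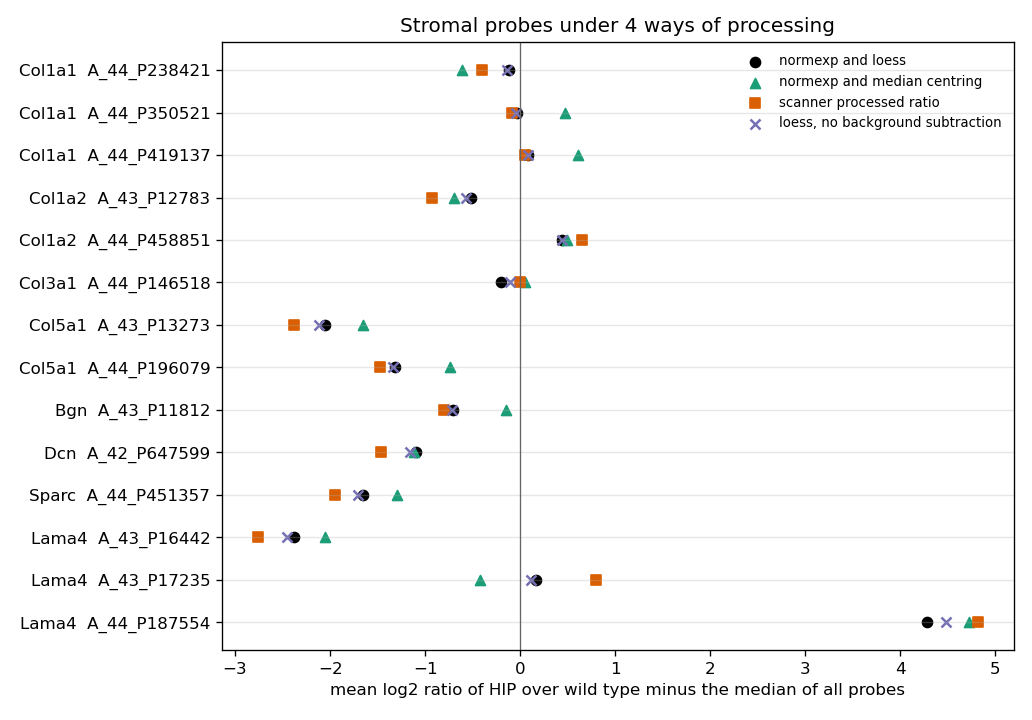
Mean log2 ratio of HIP over wild type minus the median of all probes, for the 14 stromal probes under 4 ways of processing (circle, normexp and loess; triangle, median centring; square, scanner's processed ratio; cross, loess without background subtraction). Col5a1, Sparc, Dcn and the outer Lama4 probes keep their side of 0, and the dim Lama4 probe lies between -0.43 and 0.80.

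The wider matrix pathway was followed through 5 lists, each gene by its brightest probe. In each list limma called 0 genes higher and 0 lower, as over all 29663 genes (0%). Of all genes, 2.64% were at least 2-fold higher and 2.46% at least 2-fold lower on both arrays, 5.62% were 2-fold apart in opposite directions, 26.8% were above 0 on both, 22.9% below 0 on both and 50.3% of opposite sign. At an unadjusted p of 0.05 it passed 1 gene among the other collagens, 1 of collagen maturation and turnover, 1 of PDGF and TGF-beta signalling and 0 in the other 2 lists, against 3.22% of all genes. Of 21 other collagen genes measured, 0 were 2-fold higher and 1 was 2-fold lower on both arrays, with 6 above 0 on both, 6 below 0 on both and 9 of opposite sign. The medians of the mean log2 ratios were -0.02 for other collagens, -0.22 for laminins and basement membrane, 0.09 for glycoproteins and proteoglycans, 0.08 for maturation and turnover and -0.002 for PDGF and TGF-beta signalling, against 0.02 over all genes. Relative to the median of all genes, each by its brightest probe, the sign turned with median centring for other collagens (-0.04, but 0.43), for laminins and basement membrane (-0.24, but 0.021) and for PDGF and TGF-beta signalling (-0.022, but 0.013). Col4a5, a basement membrane collagen, was the lower one at -2.27 and -1.43 (its other probe averaged 0.08), and Col10a1 was -2.09 and -0.88 (its other probe averaged 0.23). Col11a1 (5.48 and 0.16, with an average of 2.25 from its other probe) and Col16a1 (4.78 and 0.25) had large ratios on array 1 alone. The brightest were Col4a1, at 0.05 and 0.32 (its other probe averaged -0.17), and Col9a1, at -0.29 and -0.23 (its other probe averaged 0.16). The Col9a1 mean relative to the median of all probes was 0.31 with median centring.

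Of 11 measured genes of laminins and the basement membrane, 0 were 2-fold the same way on both arrays and 3 were 2-fold in opposite directions. Lama2 was -5.17 and -0.49, while its other probes averaged -1.55, 0.34 and 0.82. Lamb1 was -0.08 and -4.34, and Agrn was 0.23 and 0.42. The brightest were Lamb3 (-0.73 and -0.70, or -0.02, 0.44 and 0.56 on average from its other probes) and Lama5 (-0.003 and 0.28, or -1.42 and -0.69 on average from its other probes). The Lama4 differences therefore had no counterpart of 2-fold on both arrays among the other laminin genes measured. Of 22 matrix glycoproteins and proteoglycans, 0 were 2-fold the same way on both arrays. Mfap2, a microfibril protein, was 0.78 and 2.94, the proteoglycan gene Vcan was 0.59 and 2.90, Efemp1 was -0.16 and -2.07 (its other probe averaged -0.19), and Fmod, a relative of decorin, was -0.53 and -1.06. The elastin gene Eln was 0.98 and -0.20, and Spock1 was -0.25 and 0.45 (its other probe averaged -0.13).

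Collagen maturation and matrix turnover held 27 measured genes, with 1 at least 2-fold higher and 1 at least 2-fold lower on both arrays. P4ha1, a prolyl hydroxylase that stabilises the collagen helix, had signals of 3330 in HIP 1 and 1895 in HIP 2, against 801.3 in wild type 1 and 459.2 in wild type 2. The log2 ratios of P4ha1 were 1.57 and 1.51. Plod1, a lysyl hydroxylase that prepares collagen for crosslinking, was -1.24 and -1.25 (its other probe averaged 0.71). These probes of P4ha1 and Plod1 each gave nearly the same ratio on both arrays, P4ha1 above and Plod1 below 0. The other Plod1 probe also did so, but above 0, at 0.72 and 0.69. Mmp14, a membrane-bound collagenase, was 1.26 and 0.93, and the stromelysin gene Mmp3 was -1.23 and -0.77. The bright genes Bmp1 (-0.01 and 0.30, or 0.03 and 0.41 on average from its other probes) and Timp1 (0.99 and -0.71) lay closer to 0 on average.

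Of 17 measured genes of PDGF and TGF-beta signalling, 1 was at least 2-fold higher and 1 at least 2-fold lower on both arrays. Pdgfb, a ligand of the PDGF receptors, had signals of 8689 in HIP 1 and 1517 in HIP 2, against 318.5 in wild type 1 and 295.5 in wild type 2, with log2 ratios of 3.80 and 1.50. Tgfbr2, the receptor that first binds TGF-beta, had 676.8 and 224.7 in HIP 1 and HIP 2, against 2616 and 1896 in wild type 1 and wild type 2, with log2 ratios of -1.72 and -1.94. Neither passed the test (adjusted p = 0.942 for both by limma). The ligand gene Tgfb3 was -4.86 and -0.08, and Skil, a brake on SMAD signalling, was 0.50 and 3.02 (its other probe averaged -1.34). Tgfbr3 was 0.13 and 0.06. Ccn1 was -1.24 and 0.52 (its other probe averaged 0.33), and its mean relative to the median of all probes was 0.11 with median centring.

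Markers of stellate cells and fibroblasts other than the genes above numbered 11 measured. On both arrays 0 were 2-fold higher (2.64% of all genes) and 1 was 2-fold lower (2.46%). Limma called 0, and 1 passed at an unadjusted p of 0.05 (3.22% of all genes). The lower one was Pdpn, a surface glycoprotein of fibroblasts and lymphatic endothelium, at -2.67 and -5.02. Fap, a protease of activated fibroblasts, was 1.22 and 0.89, and Des, the desmin of quiescent stellate cells, was -0.65 and -0.74. Nes was -0.65 and -0.09 (its other probe averaged -0.41). S100a4 was 0.54 and -0.47 (its other probes averaged 0.49 and 0.18), with a mean relative to the median of all probes of -0.07 in the scanner's processed ratios. Of 16 markers of pericytes and smooth muscle, 0 were 2-fold the same way on both arrays, 0 were called by limma and 0 passed an unadjusted p of 0.05. Actg2, an actin close in sequence to Acta2, was 2.35 and 0.21, Cald1 was 0.37 and 1.71 (0.13 and 2.44 on average from its other probes), and Tpm1 was -1.98 and -0.004 (-1.92, -1.28 and -0.07 on average from its other probes). Cnn1 was -1.11 and -0.35, and the bright pericyte receptor gene Notch3 was 0.27 and 0.38.

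Markers of the cells that such a sample could hold did not follow 1 pattern. The summed processed signal of the 12 stellate and fibroblast markers was 12920 and 9097 in HIP 1 and HIP 2, against 13280 and 33880 in wild type 1 and wild type 2, while that of the 17 pericyte and smooth muscle markers was 215400 and 213700, against 158800 and 172900. The first sum was lower and the second higher in both HIP extracts, but each rested on 1 gene. Without Pdpn the stellate and fibroblast sums were 12640 and 8685 in the HIP extracts, against 10540 and 11160 in the wild-type extracts, and without Notch3 the pericyte sums were 127100 and 75090, against 85600 and 73310. Both sums then overlapped between the genotypes. The list medians of the mean log2 ratio were -0.05 and -0.09. After subtraction of the all-gene median, the pericyte and smooth muscle value turned from -0.11 with loess to 0.12 with median centring. The stellate and fibroblast value stayed negative, at -0.07 and -0.14. In each of 8 further lists limma called 0 genes in either direction. At an unadjusted p of 0.05 it passed 1 acinar and 1 ductal gene and 0 in the other 6 lists, against 3.22% of all genes. Over all genes, 2.64% were 2-fold higher and 2.46% 2-fold lower on both arrays. The genes 2-fold the same way on both arrays were the trypsinogen gene Prss3 (4.59 and 2.70), the insulin gene Ins1 (-1.18 and -1.02) and the keratin gene Krt8 (-2.64 and -3.69).

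The 11 islet endocrine markers summed to 88780 and 117800 in HIP 1 and HIP 2, against 154100 and 241000 in wild type 1 and wild type 2. Ins1 and Ins2 made up 65220 and 81450 in the HIP extracts, against 139800 and 148400 in the wild-type extracts. Without them the sums were 23560 and 36370 in the HIP extracts, against 14370 and 92620 in the wild-type extracts, and overlapped. Of all 11 islet genes, 4 were above 0 on both arrays (26.8% of all genes) and 3 below 0 on both (22.9%), with Ins1 and Ins2 among them. The other 4 were of opposite sign (50.3%). The median of the mean log2 ratios of all 11 was 0.11, but its sign depended on the processing. After subtraction of the all-gene median, the islet value was 0.09 with loess and 0.54 in the scanner's processed ratios. It was -0.17 with median centring, and -0.08 when both dyes had to be well above background on both arrays. For 10 ductal markers, 1 of them never well above background, the sums were 16470 and 17720 in the HIP extracts, against 73550 and 27650 in the wild-type extracts, and for 3 mesothelial markers 2292 and 3307, against 6071 and 7356. The islet, ductal and mesothelial sums were lower in both HIP extracts than in both wild-type extracts, as were the signals of 7 stromal probes, and their part in the stromal values was not tested. Without Krt18, which gave 41570 of the ductal sum in wild type 1 and had ratios of -2.86 and 1.30, the ductal sums were 11030 and 10490 in the HIP extracts, against 31980 and 24830 in the wild-type extracts. The ductal list medians were -0.88 on array 1 and 0.13 on array 2. Without Wt1, which gave 5952 of the mesothelial sum in wild type 2, the mesothelial sums were 1346 and 2235 in the HIP extracts, against 5029 and 1404 in the wild-type extracts, and overlapped. Of the single genes, 2 of 11 islet, 2 of 10 ductal and 0 of 3 mesothelial markers had both HIP signals below both wild-type signals (14.4% of all probes fitted). Both HIP signals lay above both wild-type signals for 3 islet, 1 ductal and 0 mesothelial markers (17% of all probes fitted). These sums without leading genes were added after the data were seen. The 14 acinar markers summed to 161200 and 209600 in the HIP extracts, against 164000 and 179000 in the wild-type extracts. The sums were 27180 and 17710 for 11 leukocyte markers in the HIP extracts, against 19740 and 32390 in the wild-type extracts, and 9464 and 11000 for 5 Schwann cell markers, 1 of them never well above background, against 13000 and 10420. The 4 adipocyte markers summed to 7151 and 9130 in the HIP extracts, against 32300 and 2706 in the wild-type extracts, so that these 4 lists overlapped between the genotypes. The 12 endothelial markers summed to 66320 and 19760 in the HIP extracts, against 19740 and 15090 in the wild-type extracts, where HIP 2 and wild type 1 were nearly equal. The defining islet transcript Ins2 had signals of 46150 and 58000 in HIP 1 and HIP 2, against 96060 and 100500 in wild type 1 and wild type 2, among the brightest probes of each extract.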

How the data were processed

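The deposited data are scanner files of 2 arrays of the Agilent rat design 014879, which carried 2 HIP and 2 wild-type extracts. Both arrays lay on 1 slide and were scanned once, per the file headers, so batch could not be modelled. Per the labels, beads were used to isolate mRNA, and global PCR then amplified its cDNA, a step that can shift the proportions of transcripts. Per the file headers, the authors' software was Agilent Feature Extraction 9.5.1.1. It deposited spot and local background intensities as scanned, and processed intensities after background subtraction, detrending and dye normalization, per the file headers. Its log10 ratio puts processed Cy5 (HIP) over processed Cy3 (wild type), per the file headers, and each ratio has a p-value from an error model of single spots, per the file headers. The authors' deposited table held the same log10 ratio, HIP over wild type, for 32868 of 36734 matched entries (89.5%) within 2e-05.

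From the intensities, log2 ratios were computed here in limma 3.58.1 (R 4.3.3) with normexp (offset 50) and loess, giving control spots a weight of 0. Outlier spots were dropped and replicate spots averaged. The fit covered the 33661 of 41012 gene probes that the software called well above background in 1 dye or both on each array. Each mean ratio was tested two-sided against 0 by lmFit and eBayes, with 1 residual and 1.69 prior degrees of freedom and Benjamini-Hochberg adjustment over all 33661. Lists used each gene's brightest probe. RefSeq gave current names for 20009 probes. Genes outside the group were named by rule. From each list came at most the 2 highest and 2 lowest mean ratios of like sign on the arrays, and the 2 brightest, restricted to probes well above background in all 4 extracts. Lists of other cell types are given mainly by counts and sums. The genes and lists were chosen with earlier results of these data known. Alternatives changed the normalization, background correction, filter, variance prior, unit of the fit, model and source of the ratios, and left out each array.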

Additional observations from a re-analysis of the deposited data

How the results depend on the processing

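Under each alternative that kept both arrays, 0 probes were called by limma, and the adjusted p of the stromal probes lay between 0.290 and 1.00; a single array gives no test. Among single-probe comparisons with both arrays, 130 of 142 for stromal probes kept their direction and their side of the threshold. For other named genes 400 of 419 did so. The other 12 and 19 reversed, and the cause was not tested. Changes of filter, variance prior, unit of the fit or model leave a probe's log2 ratio as it is, so no direction could reverse under them. These shares thus overstate how far directions held. All reversals came with another normalization or source of the ratios. On a single array, 4 of 28 stromal values (3 of Col1a1 and 1 of Col3a1) and 7 of 78 others had the sign opposite to the mean. The next ranges cover the mean of both arrays under every setting, and each array alone after loess. The log2 ratio lay between 4.12 and 5.78 for the higher Lama4 probe and between -3.27 and -0.07 for the lower one. The -0.07 is the authors' deposited entry, which does not equal the scanner's ratio of that probe. Apart from that entry, the end nearest 0 for the lower probe was -0.99, with no normalization. It lay between -2.49 and -0.60 for Col5a1 A_43_P13273 and between -2.23 and -0.24 for Sparc. Single arrays under other settings went outside these ranges. With no normalization, the higher Lama4 probe was 6.28 on array 2, and Sparc was -1.16 on array 1 and 0.69 on array 2. Of all probes, 864 were at least 2-fold higher and 820 lower in HIP on both arrays, and these counts were 2498 and 461 with median centring, 9098 and 180 with no normalization, 1929 and 1576 with the scanner's ratio, 1631 and 1314 in the authors' deposited table, and 4655 to 5089 and 4332 to 5598 on a single array. Among stromal probes the counts of 1 higher and 3 lower were 1 and 2 with median centring, 3 and 0 with no normalization and 0 and 1 in the authors' deposited table. They were 1 to 2 and 5 on a single array, and 1 was lower with the brightest probe per gene. Median centring reversed Col1a1 A_44_P350521 (0.74), Col3a1 (0.32), Bgn (0.12), Lama4 A_43_P17235 (-0.16), Col9a1 (0.58), Lamb3 (0.10), Ccn1 (0.38), Nes (0.20) and Cnn1 (0.010). With no normalization, where the all-probe medians were 0.78 and 1.19 on arrays 1 and 2, Col1a1 A_44_P238421 (0.45) and A_44_P350521 (1.53), Col1a2 A_43_P12783 (0.36), Col3a1 (1.11), Col5a1 A_44_P196079 (0.32), Bgn (0.91), Col9a1 (1.37), Lamb3 (0.89), Efemp1 (0.21), Fmod (0.69), Plod1 (0.11), Mmp3 (0.35), Ccn1 (1.17), Des (0.65), Nes (1.00), Tpm1 (0.48) and Cnn1 (0.80) reversed. The scanner's ratio reversed Col3a1 (0.038) and S100a4 (-0.027), and the authors' deposited table reversed Col3a1 (0.038), Col4a1 (-0.023) and Lama5 (-0.34). The test of ratios within arrays is itself paired, and treating the 4 channels as separate samples also gave 0 calls. Slide and scan could not be fitted because both arrays share them. With 2 arrays no detection limit was measured, and 0 calls do not show that levels were equal.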

Other observations

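A further probe, A_44_P299515, is described on the array as decorin but carries no gene symbol, so the rule did not take it; it was looked at after its description was seen. It read 198.7 in HIP 1 and 99.78 in HIP 2, against 200.2 in wild type 1 and 130.9 in wild type 2. Its log2 ratios were 0.05 and -0.09, while the Dcn probe of the group gave -2.06 and -0.09.

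Of the 4 genes beside Lama4 whose probes lay 2-fold apart in opposite directions on both arrays, Chd1, a chromatin remodeller, had probes at mean log2 ratios of 3.76 and -4.60. Hspd1, a mitochondrial chaperone, had 4 probes at 2.00, -0.99, -3.55 and -3.98. The outer probes of Masp2, a complement protease, stood at 2.48 and -2.21, and those of Slc12a7, a potassium and chloride cotransporter, at 2.12 and -1.90. Among the 3340 genes with several probes, 353 (10.6%) had a probe 2-fold the same way on both arrays, and in 20 (0.599%) at least 2 probes did so in 1 direction.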
